A study of Rattus norvegicus with 6 samples.

Results

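The genes described here are the ligands, receptors and regulators of the Wnt pathway in rat endometrial epithelial organoids (rEEOs) and rat bone marrow mesenchymal stem cells (rBMSCs). They were chosen by gene symbol: the Wnt, Fzd, Rspo, Dkk, Sfrp, Dvl, Tle, Dact, Vangl, Prickle and Celsr families, together with the named co-receptors, ring-finger ligases, destruction-complex genes, TCF/LEF factors and inhibitors of the pathway. A gene also had to have at least 10 expected counts in all over the 6 libraries. Of the 13728 genes of the table, 66 bore such a symbol and 61 passed the count rule. The remaining 5 were Fzd7, Notum, Rspo4, Wnt10b and Wnt3a, each with at most 3 counts in any library.

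Bulk RNA-seq had been performed on 3 rEEOs samples and 3 rBMSCs samples to compare the expression profiles of the cells that the study transplanted into injured rat endometrium. rEEOs were cultures of uterine gland fragments from young female Sprague-Dawley rats, embedded in Matrigel and fed an expansion medium that contained EGF, FGF10, noggin, the TGF-beta receptor inhibitor A83-01, the ROCK inhibitor Y27632 and, as added proteins, Wnt3a and R-Spondin-1. rBMSCs were a purchased preparation labelled with red fluorescent protein, grown as a flat culture in DMEM/F12 with fetal bovine serum. Neither group carried a further treatment or mutation that the labels name. Cell type, source animal, medium and culture geometry therefore differ together between the groups and cannot be told apart. The sources used here do not say whether the 3 libraries of a group came from separate animals or cultures, so each p-value measures only the spread between these samples.

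Wnt proteins are lipid-modified ligands that bind Frizzled (Fzd) receptors. With the co-receptors Lrp5 and Lrp6 they keep the destruction complex of Axin, Apc and Gsk3 from marking beta-catenin for breakdown, and beta-catenin then acts with TCF/LEF factors on target genes. With Ror, Ryk or the planar polarity proteins Vangl, Prickle and Celsr, Wnt ligands also act without beta-catenin on cell shape and movement. R-spondins bind Lgr receptors and hold off the ligases Rnf43 and Znrf3, which remove Fzd from the cell surface. In the uterus Wnt4, Wnt5a and Wnt7a are known for gland formation and decidualization, while in marrow stromal cells the pathway is known for the choice between bone and fat.

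The libraries held between 10457958 and 15421501 expected counts over the genes analysed, and the 10 most abundant genes took 21.0% to 21.7% of them in rBMSCs and 6.7% to 9.7% in rEEOs. Markers of the labelled cell types were checked. All 8 epithelial markers were higher in rEEOs, with a summed level of 4956 to 5547 TPM (a level corrected for transcript length and library size) against 2.54 to 3.0 TPM in rBMSCs. Of 9 mesenchymal markers 8 were lower in rEEOs, with 172 to 298 TPM against 41220 to 43516 TPM. Nearly all of the rEEOs level was Vim, at 171, 297 and 227 TPM in replicates 1, 2 and 3. Pdgfrb and Thy1 were at 0 counts in the 3 rEEOs libraries, and Col1a1 was at no more than 11. The endothelial markers reached at most 7 counts in any rEEOs library and the smooth muscle markers at most 1, whereas the smooth muscle markers summed to 343 to 387 TPM in rBMSCs. Of 5 haematopoietic markers only Cd14 was above 2 counts in rEEOs, and the 3 ciliated cell markers summed to 10.2 to 11.7 TPM there. rEEOs replicate 1 stood apart from the other rEEOs. The median gene's standard deviation on the log2 CPM scale was 0.382 in rEEOs, 0.184 in rEEOs without replicate 1 and 0.0963 in rBMSCs. Relative to its group, replicate 1 was lower by 0.44 on the log2 scale for the lowest quartile of transcript length and higher by 0.58 for the highest.

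Most Wnt pathway genes differed between rEEOs and rBMSCs, and at the adjusted p alone more of them were lower than higher in rEEOs. Of the 61 genes, 54 had enough counts to be tested, namely at least 10 counts in at least 3 libraries. At an adjusted p below 0.05 in edgeR's quasi-likelihood test with Benjamini-Hochberg adjustment over all 10607 genes tested, here called the edgeR adjusted p, 16 were higher in rEEOs, which is 29.6% of the 54 compared to 33.3% of all genes tested. Lower in rEEOs were 27, or 50%, compared to 30.2% of all genes tested, and 11 did not pass. With the study's further threshold of an absolute log2 fold change above 2, 15 were higher, or 27.8% against 16.3% of all genes, and 20 were lower, or 37.0% against 13.3%. The median log2 fold change was -0.54 over the 54 genes and 0.08 over all genes tested. Of the 54 genes, 9 had no count in 1 cell type and 8 had 1 to 3 counts there in all. These met the count filter only through the other cell type, so the filter fixed their direction, also in the counts above. With the 9 genes that had no count in 1 cell type set at their bound, all 35 genes past both thresholds remained past the fold threshold. The adjusted p was not computed anew. The median could not move from -0.54, as each bound lies on the same side of it as the fitted value. With libraries scaled by their size alone, which moves the median of all genes to 0.46, the split past both thresholds was 17 higher and 15 lower, as Fzd1, Fzd8, Lrp4, Nkd1 and Tcf7l2 left it and Fzd3 and Fzd6 joined. With a trend on transcript length removed from each library, which was added with the data in view, it was 16 and 15, as Apc2, Fzd1, Fzd8, Lrp4 and Nkd1 left it and Fzd6 joined. The split past both thresholds thus depends on the scaling, while at the adjusted p alone these fits gave 18 higher and 25 lower, and 18 and 27. Without rEEOs replicate 1 the split past both thresholds was 15 and 20, and at the adjusted p alone 18 and 31. Shares of all genes were not computed for these refits, so their counts cannot be set against a background. In bulk RNA, fewer cells of a type and less RNA per cell cannot be told apart, and this holds for each difference given.

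**Figure D1:**
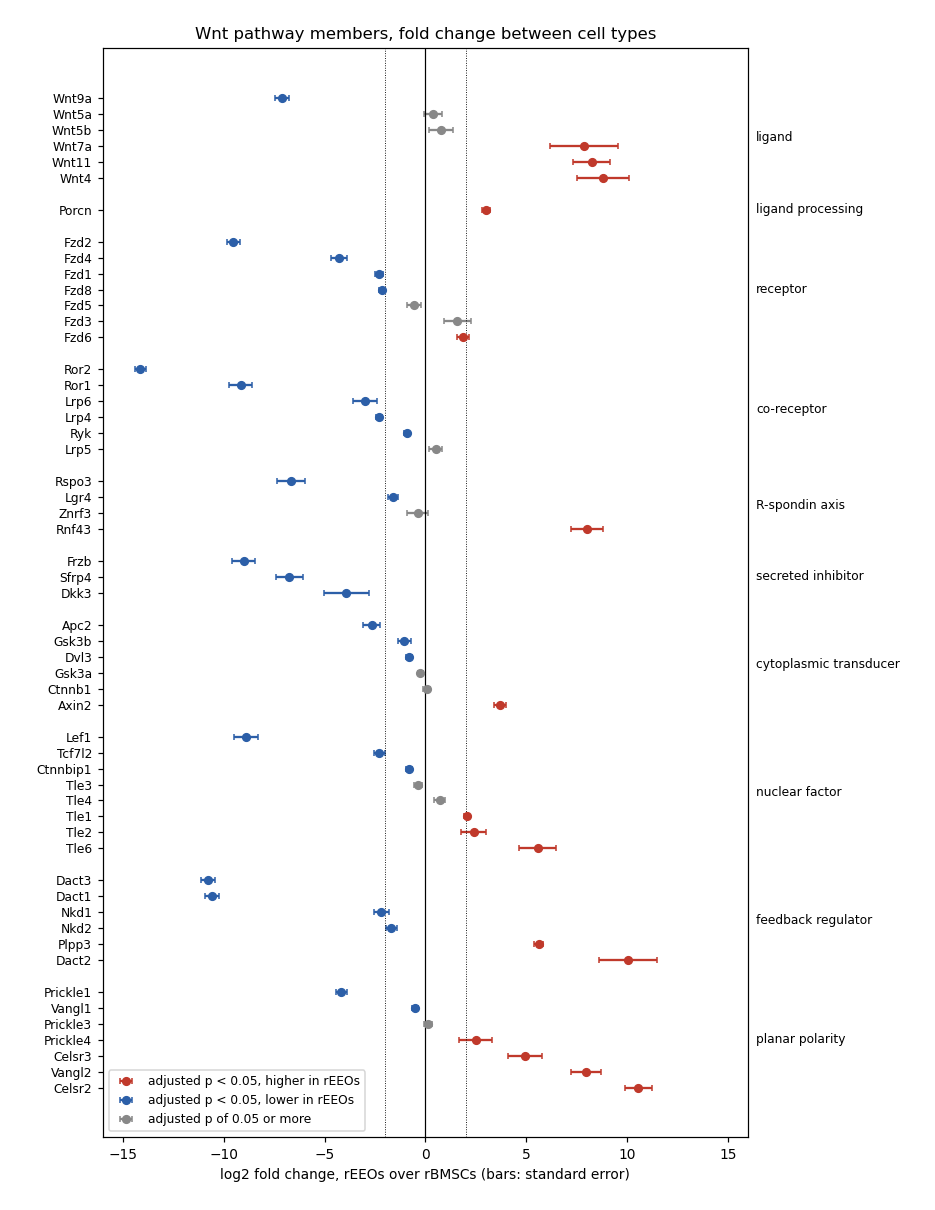
Log2 fold change of the 54 tested Wnt pathway genes, rEEOs over rBMSCs, from edgeR's quasi-likelihood fit, grouped by role, with bars for the standard error and dotted lines at the fold threshold of 2. Blue points (27 genes lower in rEEOs) appear in every role but ligand processing, red points (16 genes higher) in every role but the co-receptors and secreted inhibitors, and grey points (11 genes) did not pass; the position of a gene without counts in 1 cell type depends on the fit and is not a measured fold.

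Of the 7 ligands that met the count rule 6 were tested, and both cell types expressed Wnt5a. At an edgeR adjusted p below 0.05, 3 ligands were higher in rEEOs, 1 was lower and 2 did not pass. Over all genes tested, 33.3% were higher and 30.2% lower, and the ligands were not tested against these shares. Ligand genes outside the table were not analysed. Wnt5a, the ligand best known for signalling without beta-catenin, was at 21.8, 18 and 20.1 TPM in rBMSCs replicates 1, 2 and 3 and at 46.6, 8.11 and 14.95 TPM in rEEOs replicates 1, 2 and 3. The rEEOs libraries lay on both sides of the rBMSCs, replicate 1 above and the others under them. The log2 fold change was 0.37 ± 0.46 (SE) and did not pass (edgeR adjusted p = 0.513). Without rEEOs replicate 1 it was -0.30, so the sign rests on that library. Wnt9a, a ligand known from joint and skeletal development, was the second most abundant of these ligands in rBMSCs, at 12.4, 10.99 and 11.4 TPM. It was at 0.13, 0.03 and 0.05 TPM in rEEOs, or 5, 1 and 2 counts. Each rBMSCs library was far above each rEEOs library, and Wnt9a was 140-fold lower in rEEOs (log2 fold change -7.13 ± 0.34, edgeR adjusted p = 1.62e-05).

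A further 3 ligands were read in each rEEOs library and in no rBMSCs library. They met the count filter only through their rEEOs counts, so the filter fixed the direction of their test. Wnt4, which is needed for the female reproductive tract and for decidualization, had 30, 36 and 91 counts in rEEOs (2.62, 3.11 and 7.90 TPM) and 0 counts in rBMSCs. It was at least 18.5-fold higher in rEEOs, taking 3 counts per library as the limit that a count of 0 allows (edgeR adjusted p = 0.00442). Wnt11, a ligand of the beta-catenin-independent branch, had 40, 21 and 51 counts (1.45, 0.75 and 1.90 TPM) and was at least 12.5-fold higher (edgeR adjusted p = 0.0017). Wnt7a, the epithelial ligand that patterns the oviduct and uterus, had 11, 15 and 56 counts (0.30, 0.41 and 1.54 TPM). Wnt7a was at least 9.8-fold higher than the rBMSCs (edgeR adjusted p = 0.0151). Wnt4 and Wnt7a were highest in rEEOs replicate 3 and lowest in replicate 1, whereas Wnt5a was highest in replicate 1. Each such limit uses the mean of the 3 rEEOs libraries, so a single library can lie below it. These limits and the intervals given for other genes cover counting error only.

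The remaining ligands of these 7 were near the limit of detection. Wnt5b, the close relative of Wnt5a, lay at 0.43 to 0.77 TPM in rBMSCs and 0.26 to 1.81 TPM in rEEOs with overlapping groups, and its log2 fold change of 0.78 ± 0.60 did not pass (edgeR adjusted p = 0.289). Wnt10a had 15 counts in rEEOs replicate 1 and none in any other library, and was not tested. Summed over the 7 ligands, the level was 32.2 ± 2.71 TPM (mean ± SD, n = 3) in rBMSCs and 31.0 ± 20.7 TPM (n = 3) in rEEOs. This sum differed by less than the spread between rEEOs libraries. It is not the total of all Wnt ligands, as those outside the table are not in it. Wnt5a made up 60.9% to 62.9% of that sum in rBMSCs and 55.4% to 87.2% in rEEOs. Wnt9a made up 35.5% to 37.2% in rBMSCs and no more than 0.243% in rEEOs, where Wnt4 held 4.9% to 29.3%. Porcn, the acyltransferase that lipid-modifies Wnt proteins before secretion, was at 8.23, 8.85 and 8.51 TPM in rBMSCs and at 90.8, 41.5 and 49.7 TPM in rEEOs. Each rEEOs library was above each rBMSCs library, and Porcn was 8.11-fold higher (log2 fold change 3.02 ± 0.20, edgeR adjusted p = 4.86e-05).

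**Figure D2:**
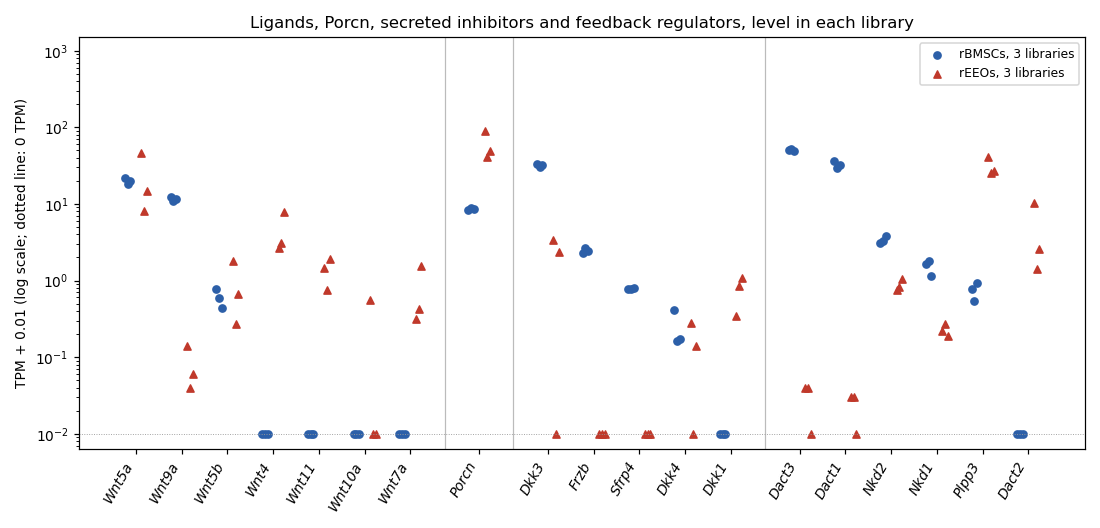
Level of each ligand, Porcn, secreted inhibitor and feedback regulator in each of the 6 libraries, as TPM + 0.01 on a log axis; circles are rBMSCs, triangles rEEOs, replicates 1 to 3 from left to right, and the dotted line marks 0 TPM. Wnt4, Wnt7a, Wnt11 and Dact2 sit on the dotted line in rBMSCs, Frzb and Sfrp4 in rEEOs, and the triangles of Wnt5a fall on both sides of its circles.

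The make-up of the Frizzled receptors differed, as Fzd2 led in rBMSCs and Fzd6 in rEEOs. Fzd2, a receptor of both branches, was at 194, 199.8 and 201 TPM in rBMSCs and at 0.44, 0.10 and 0.15 TPM in rEEOs, where it had 9, 2 and 3 counts. The groups did not overlap, and Fzd2 was 734-fold lower in rEEOs (log2 fold change -9.52 ± 0.34, edgeR adjusted p = 6.85e-06). Fzd4, the receptor of Norrin as well as of Wnt ligands, was at 47.2, 39.9 and 45.4 TPM in rBMSCs and at 3.64, 1.57 and 0.90 TPM in rEEOs. Its lowest rBMSCs library was still far above its highest rEEOs library, and it was 19.5-fold lower (log2 fold change -4.28 ± 0.41, edgeR adjusted p = 0.000209). Fzd1, a relative of Fzd2, was at 26.3, 22.9 and 26.5 TPM in rBMSCs and at 6.05, 2.75 and 4.61 TPM in rEEOs. Fzd1 was 4.88-fold lower without overlap (log2 fold change -2.29 ± 0.21, edgeR adjusted p = 0.000172).

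Fzd8, a receptor often used as a soluble Wnt trap, was at 46.4, 54.7 and 51.0 TPM in rBMSCs and at 10.8, 9.11 and 10.02 TPM in rEEOs. It was the steadiest Frizzled among the rEEOs libraries and was 4.43-fold lower (log2 fold change -2.15 ± 0.16, edgeR adjusted p = 6.93e-05). The expected counts of Fzd8 were not whole in any library, so some of its reads were shared with another annotated transcript and its level is uncertain. Fzd6, a receptor known for hair and epithelial polarity, went the other way, at 6.61, 6.04 and 6.50 TPM in rBMSCs and 35.1, 11.5 and 16.5 TPM in rEEOs. All 3 rEEOs libraries were above the rBMSCs, replicate 1 most, and Fzd6 was 3.60-fold higher (log2 fold change 1.85 ± 0.29, edgeR adjusted p = 0.00182).

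The other receptors were low or did not pass. Fzd3, a planar polarity receptor, lay at 0.89 to 1.14 TPM in rBMSCs and at 0.64 to 6.40 TPM in rEEOs (log2 fold change 1.59 ± 0.67, edgeR adjusted p = 0.077), and passed without rEEOs replicate 2 (edgeR adjusted p = 0.0107). Fzd5, a receptor known in intestinal crypts, lay at 4.41 to 5.66 TPM in rBMSCs and 1.89 to 5.34 TPM in rEEOs (log2 fold change -0.57 ± 0.34, edgeR adjusted p = 0.182), and without rEEOs replicate 1 its log2 fold change of -0.95 passed (edgeR adjusted p = 0.00773). Both were highest in rEEOs replicate 1 among the rEEOs. Fzd9 and Fzd10 had at most 8 counts in any library and were not tested. The 9 receptors together summed to 331 ± 4.93 TPM in rBMSCs and 44.0 ± 21.3 TPM in rEEOs (n = 3 each). Fzd2 made up 59.3% to 60.8% of this sum in rBMSCs and 0.36% to 0.646% in rEEOs, and Fzd6 made up 1.84% to 2.02% and 41.5% to 51.4%. By mean level the order was Fzd2, Fzd8, Fzd4, Fzd1 and Fzd6 in rBMSCs, where Fzd8 and Fzd4 were the neighbours closest to each other, at 50.7 ± 4.15 and 44.1 ± 3.83 TPM. In rEEOs the order was Fzd6, Fzd8, Fzd1, Fzd5 and Fzd3, and the last 3 were at 4.47 ± 1.65, 3.07 ± 1.96 and 2.97 ± 3.04 TPM, within each other's spread.

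**Figure D3:**
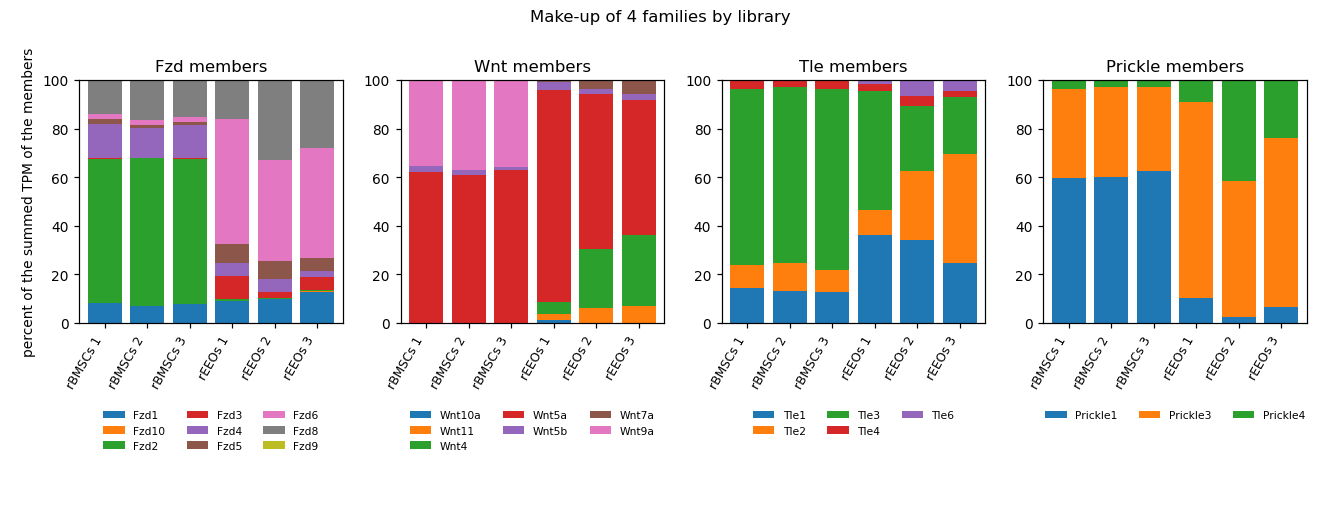
Share of each member in the summed TPM of its family, in percent, for the Fzd, Wnt, Tle and Prickle families, with 1 stacked bar for each library. The 3 rBMSCs bars of a family look alike; in rEEOs the Fzd2 share is at most 0.646% and the Fzd6 share reaches 41.5% to 51.4%, the Wnt9a share is at most 0.243% while Wnt5a holds 87.2% in replicate 1 and Wnt4 holds 24.5% and 29.3% in replicates 2 and 3, and Prickle1 goes from 59.5% to 62.4% of its family to 2.45% to 10.4%.

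The co-receptors were lower in rEEOs except for Lrp5. Ror2, the receptor kinase through which Wnt5a acts, was at 57.5, 55.8 and 57.5 TPM in rBMSCs, or 2265, 2328 and 2168 counts, and had 0 counts in each rEEOs library. Ror2 was at least 733.3-fold lower in rEEOs (edgeR adjusted p = 1.46e-05). Ror1, its relative, was at 8.11, 6.16 and 8.20 TPM in rBMSCs, and its only read in rEEOs was 1 count in replicate 3. The ratio of pooled counts was 787-fold lower in rEEOs (95% exact interval 141 to 31116, edgeR adjusted p = 3.91e-05). Ryk, the third kinase-like Wnt receptor, was at 122, 134 and 132 TPM in rBMSCs and at 73.6, 45.9 and 47.3 TPM in rEEOs. Ryk therefore remained well expressed in both cell types and was 1.91-fold lower without overlap (log2 fold change -0.93 ± 0.11, edgeR adjusted p = 0.000591). Of the summed level of the 3 kinases, Ryk made up 65.1% to 68.3% in rBMSCs and all but that single Ror1 count in rEEOs.

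Lrp6, the co-receptor of the beta-catenin branch, was at 77.7, 55.4 and 77.5 TPM in rBMSCs and at 18.3, 3.36 and 3.31 TPM in rEEOs. The groups did not overlap, but rEEOs replicate 1 was far above the other rEEOs libraries, and Lrp6 was 7.97-fold lower (log2 fold change -3.0 ± 0.60, edgeR adjusted p = 0.00517). Lrp5, its close relative, was at 23.7, 20.4 and 21.7 TPM in rBMSCs and at 50.2, 15.5 and 19.1 TPM in rEEOs. The rEEOs libraries lay on both sides of the rBMSCs, and the log2 fold change of 0.51 ± 0.31 did not pass (edgeR adjusted p = 0.193). With the length trend removed, Lrp5 was 0.91 higher on the log2 scale and passed (edgeR adjusted p = 0.00546). Lrp4, a related receptor that binds sclerostin and Dkk1, was at 6.22, 5.25 and 6.68 TPM in rBMSCs and at 1.28, 0.91 and 0.98 TPM in rEEOs. It was 4.88-fold lower without overlap (log2 fold change -2.29 ± 0.16, edgeR adjusted p = 5.4e-05). Among the 3 Lrp genes, Lrp6 held 68.3% to 73.2% of the sum in rBMSCs, and Lrp5 held 71.9% to 81.7% in rEEOs.

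The R-spondin axis showed opposite directions for a receptor and a ligase. Rnf43, the membrane ligase that removes Fzd receptors and is itself a target of beta-catenin, had 0, 0 and 3 counts in rBMSCs and was at 13.4, 5.78 and 5.45 TPM in rEEOs. The ratio of pooled counts was 304-fold higher in rEEOs (95% exact interval 104 to 1478, edgeR adjusted p = 0.000257). Znrf3, the second such ligase, was at 1.42, 1.29 and 1.57 TPM in rBMSCs and at 2.10, 0.51 and 0.40 TPM in rEEOs. Here replicate 1 of rEEOs lay above the rBMSCs and the other rEEOs under them (log2 fold change -0.39 ± 0.53, edgeR adjusted p = 0.54). Without that library Znrf3 was lower by 1.20 on the log2 scale, with a log2 fold change of -1.20 that passed (edgeR adjusted p = 0.00967).

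Lgr4, an R-spondin receptor of epithelia and bone, was at 43.9, 38.5 and 48.4 TPM in rBMSCs and at 20.4, 8.22 and 9.32 TPM in rEEOs. Every rBMSCs library was above every rEEOs library, and Lgr4 was 3.06-fold lower (log2 fold change -1.61 ± 0.24, edgeR adjusted p = 0.00135). Lgr6 had at most 8 counts in any library and was not tested. The ligand Rspo3 was read only in rBMSCs, with 12, 13 and 13 counts, or 0.82 to 1.16 TPM. Its 0 counts in rEEOs leave it at least 4.1-fold lower there (edgeR adjusted p = 0.00138). Rspo2 had 6, 2 and 6 counts in rBMSCs and 0 in rEEOs and was not tested. The R-Spondin-1 of the rEEOs medium was an added protein, and the level of Rspo1 was not analysed here.

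**Figure D4:**
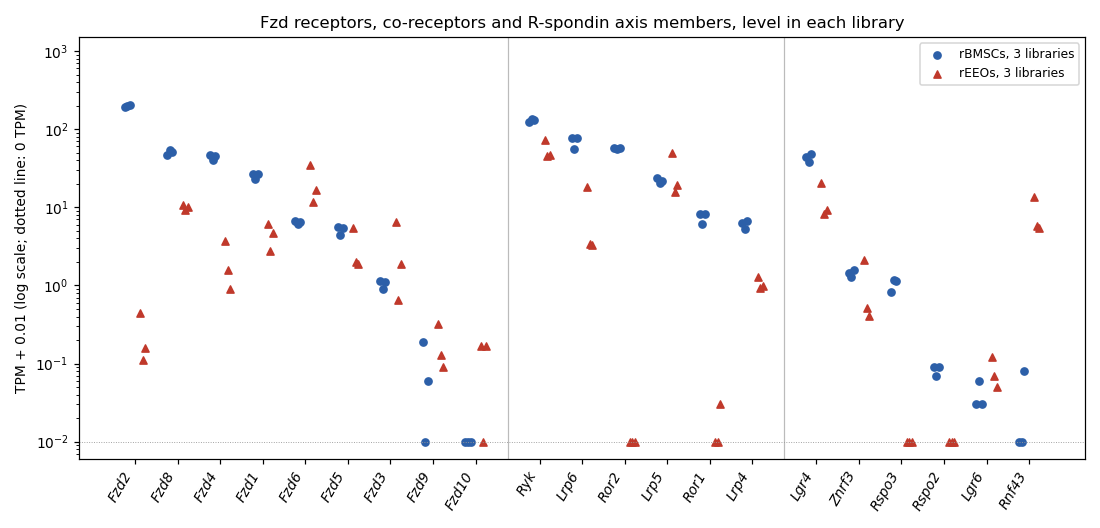
Level of each Fzd receptor, co-receptor and R-spondin axis gene in each of the 6 libraries, as TPM + 0.01 on a log axis, ordered within each block by the rBMSCs mean; circles are rBMSCs, triangles rEEOs, replicates 1 to 3 from left to right, and the dotted line marks 0 TPM. Fzd2 drops from about 200 TPM to under 1 TPM, Ror2 and Rspo3 sit at 0 TPM in rEEOs, and Rnf43 stands at 5.45 to 13.4 TPM in rEEOs.

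Of the 5 secreted inhibitors, 3 met the count filter and were lower in rEEOs, as were 30.2% of all genes tested. The filter shaped this outcome, as Frzb and Sfrp4 met it only through their counts in rBMSCs. Dkk1, read only in rEEOs, missed it and was called higher there when no filter was used. Dkk3, a divergent member of the Dickkopf family, was at 33.0, 30.1 and 31.9 TPM in rBMSCs and at 3.36, 0 and 2.36 TPM in rEEOs. The rEEOs counts of Dkk3 were thus uneven, 203 and 142 in replicates 1 and 3 against none in replicate 2, and the log2 fold change was -3.92 ± 1.11 (edgeR adjusted p = 0.0202). The call was lost without any 1 of the 3 rBMSCs libraries or without rEEOs replicate 3, with edgeR adjusted p between 0.0537 and 0.0566. Frzb, which binds Wnt ligands as a soluble Frizzled-like protein, was at 2.25, 2.65 and 2.42 TPM in rBMSCs, or 59, 74 and 61 counts, and at 0 counts in rEEOs. Frzb was at least 21.0-fold lower (edgeR adjusted p = 0.00031). Sfrp4, of the same family, had 13, 14 and 13 counts in rBMSCs and 0 in rEEOs and was at least 4.3-fold lower (edgeR adjusted p = 0.00126). Dkk1 had 5, 12.57 and 16.17 expected counts in rEEOs and 0 in rBMSCs, and Dkk4 had at most 5 counts in any library. Neither was tested, and the counts of Dkk1 were not whole, so its level is uncertain. Summed over the 5 inhibitors the level was 35.1 ± 1.39 TPM in rBMSCs and 2.79 ± 1.70 TPM in rEEOs (n = 3 each). Dkk3 alone made up 89.4% to 90.6% of this sum in rBMSCs. The sum leaves out Sostdc1, a secreted antagonist outside this group. Sostdc1 was at 61.7, 122 and 63.7 TPM in rEEOs and at 0 counts in rBMSCs.

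Of the cytoplasmic transducers, beta-catenin itself did not pass the test while Axin2 was higher in rEEOs. Ctnnb1, which encodes beta-catenin, was at 321, 288 and 313 TPM in rBMSCs and at 358, 246 and 187 TPM in rEEOs. The groups overlapped, and the log2 fold change was 0.07 ± 0.17 (edgeR adjusted p = 0.728). Axin2, a scaffold of the destruction complex and a widely used target gene of beta-catenin, was at 0.82, 0.53 and 1.06 TPM in rBMSCs and at 12.4, 6.09 and 8.83 TPM in rEEOs. Each rEEOs library was above each rBMSCs library, and Axin2 was 13.1-fold higher (log2 fold change 3.71 ± 0.31, edgeR adjusted p = 0.000121). Apc2, a relative of the tumour suppressor Apc, was at 1.82, 1.49 and 1.77 TPM in rBMSCs and at 0.36, 0.25 and 0.08 TPM in rEEOs. Apc2 was 6.35-fold lower without overlap (log2 fold change -2.67 ± 0.44, edgeR adjusted p = 0.00221).

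Of the Gsk3 kinases and Dvl3, Gsk3b and Dvl3 were lower in rEEOs and Gsk3a did not pass. Gsk3a was at 81.5, 79.5 and 81.0 TPM in rBMSCs and at 81.8, 46.6 and 47.6 TPM in rEEOs. Replicate 1 of rEEOs was level with the rBMSCs, and the gene did not pass (log2 fold change -0.25 ± 0.13, edgeR adjusted p = 0.13), though without that library it did, at -0.33 (edgeR adjusted p = 0.00754). Gsk3b was at 64.6, 53.9 and 70.2 TPM in rBMSCs and at 49.4, 13.7 and 17.3 TPM in rEEOs. It was 2.08-fold lower (log2 fold change -1.05 ± 0.32, edgeR adjusted p = 0.0251). However, with 5 of the 6 libraries left out in turn, all but rEEOs replicate 1, the edgeR adjusted p was 0.0563 to 0.0879. Scaled by library size alone, Gsk3b did not pass either (edgeR adjusted p = 0.132). Dvl3, a Dishevelled protein that carries the signal from Fzd to both branches, was at 54.4, 51.3 and 54.6 TPM in rBMSCs and at 37.8, 17.6 and 19.5 TPM in rEEOs. It was 1.77-fold lower without overlap (log2 fold change -0.82 ± 0.13, edgeR adjusted p = 0.00199).

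Axin2 and Nkd1 are shown because they alone matched the TCF/LEF motif CTTTGAT in the promoter windows searched. Both are textbook targets of beta-catenin, and they went in opposite directions. The 250 bases before their RefSeq gene starts (build GRCr8) are given 5′ to 3′ on the strand of the gene, with the match in capitals. Axin2 is on the plus strand at chr10:94398535-94398784 and Nkd1 on the minus strand at chr19:34722847-34723096.
Axin2: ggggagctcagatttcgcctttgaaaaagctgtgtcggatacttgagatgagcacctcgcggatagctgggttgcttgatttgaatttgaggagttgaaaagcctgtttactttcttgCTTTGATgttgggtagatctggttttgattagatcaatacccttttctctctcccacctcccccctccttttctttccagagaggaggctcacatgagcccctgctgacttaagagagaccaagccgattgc
Nkd1: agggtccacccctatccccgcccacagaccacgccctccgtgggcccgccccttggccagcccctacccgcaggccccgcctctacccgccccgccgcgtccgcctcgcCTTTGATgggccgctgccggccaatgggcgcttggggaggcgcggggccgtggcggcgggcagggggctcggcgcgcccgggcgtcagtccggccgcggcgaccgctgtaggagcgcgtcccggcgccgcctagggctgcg
The match begins 132 bases before the start of Axin2 and 141 bases before that of Nkd1. These were the only matches, on either strand and with the reverse complement ATCAAAG counted as the same motif, in the windows of 250 bases before to 50 bases after the start of 47 genes of the 61 that had a RefSeq promoter, or 4.26%. Of all 27457 RefSeq promoters, 1084 held the motif, or 3.95%. By the test, 1 of 15 genes called higher, 1 of 15 called lower and 0 of 13 tested and not called held it. A match is a string of letters and was not tested as a binding site.

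The feedback regulators held several of the widest differences. Dact1 and Dact3, which bind Dishevelled and modulate its signal, were expressed in rBMSCs and nearly absent from rEEOs, and Dact2 showed the opposite. Dact1 was at 35.9, 29.6 and 32.5 TPM in rBMSCs, and rEEOs held 1, 1 and 0 counts. Its ratio of pooled counts was 1817-fold lower in rEEOs (95% exact interval 503 to 15011, edgeR adjusted p = 6.13e-06). Dact3 was at 51.3, 52.1 and 49.4 TPM in rBMSCs with 1, 1 and 0 counts in rEEOs. It was 2078-fold lower (95% exact interval 575 to 17163, edgeR adjusted p = 5.16e-06). Dact2 had 0 counts in rBMSCs and was at 10.1, 1.39 and 2.59 TPM in rEEOs, or 315, 43 and 80 counts. Dact2 was thus detected in each rEEOs library, most in replicate 1. By the mean of the rEEOs libraries, which replicate 1 raised, it was at least 43.5-fold higher (edgeR adjusted p = 0.00408).

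Nkd1, a Dishevelled-binding inhibitor that beta-catenin induces, was at 1.65, 1.80 and 1.12 TPM in rBMSCs and at 0.21, 0.26 and 0.18 TPM in rEEOs. It was 4.58-fold lower without overlap (log2 fold change -2.20 ± 0.37, edgeR adjusted p = 0.00251), in the direction opposite to Axin2. Its relative Nkd2 lay at 3.10 to 3.81 TPM in rBMSCs and 0.75 to 1.03 TPM in rEEOs and was 3.22-fold lower (log2 fold change -1.69 ± 0.29, edgeR adjusted p = 0.00266). Plpp3, a membrane lipid phosphatase, was at 0.77, 0.53 and 0.91 TPM in rBMSCs and at 40.8, 25.7 and 27.0 TPM in rEEOs. Each rEEOs library was far above the rBMSCs, and Plpp3 was 49.4-fold higher (log2 fold change 5.63 ± 0.22, edgeR adjusted p = 8.8e-06).

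In the nucleus, the TCF/LEF factors held in the table were lower in rEEOs. The Groucho co-repressors (Tle) are a family known to bind TCF/LEF factors when beta-catenin is absent. Of the 5 Tle genes, Tle1, Tle2 and Tle6 were higher, while Tle3 and Tle4 did not pass. Lef1 was at 3.06, 2.50 and 2.51 TPM in rBMSCs, or 67, 64 and 47 counts, and at 0 counts in each rEEOs library. Lef1 was at least 19.3-fold lower in rEEOs (edgeR adjusted p = 0.00039). Tcf7l2, the main TCF factor of many epithelia, was at 13.1, 12.2 and 12.5 TPM in rBMSCs and at 1.80, 1.86 and 2.69 TPM in rEEOs. It was 4.89-fold lower without overlap (log2 fold change -2.29 ± 0.28, edgeR adjusted p = 0.000606). Together these genes summed to 15.3 ± 0.777 TPM in rBMSCs and 2.12 ± 0.497 TPM in rEEOs (n = 3 each). Ctnnbip1, an inhibitor that keeps beta-catenin from TCF factors, was at 26.03, 25.3 and 25.4 TPM in rBMSCs and at 15.6, 9.95 and 11.8 TPM in rEEOs. It was 1.76-fold lower without overlap (log2 fold change -0.81 ± 0.13, edgeR adjusted p = 0.00169).

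Among the co-repressors, Tle1 was at 6.24, 5.28 and 5.59 TPM in rBMSCs and at 24.5, 17.4 and 17.0 TPM in rEEOs. The groups did not overlap, and Tle1 was 4.10-fold higher in rEEOs (log2 fold change 2.04 ± 0.13, edgeR adjusted p = 4.18e-05). Tle2 was at 4.18, 4.57 and 4.00 TPM in rBMSCs and at 6.93, 14.6 and 30.8 TPM in rEEOs, where replicate 1 was closest to the rBMSCs. It was 5.24-fold higher (log2 fold change 2.39 ± 0.62, edgeR adjusted p = 0.0143), and without rBMSCs replicate 1 or 3 the edgeR adjusted p was 0.0503 and 0.0524. Tle6, a shorter family member whose gene lies beside Tle2 with no protein-coding gene between them, had 2, 1 and 0 counts in rBMSCs and 21, 65 and 62 counts in rEEOs. Its ratio of pooled counts was 49-fold higher in rEEOs (95% exact interval 17 to 241, edgeR adjusted p = 0.00236). Tle3, the most abundant co-repressor of rBMSCs, was at 31.5, 29.1 and 32.5 TPM there and at 33.3, 13.7 and 16.1 TPM in rEEOs. It did not pass (log2 fold change -0.36 ± 0.19, edgeR adjusted p = 0.131), and without rEEOs replicate 1 it was lower with a log2 fold change of -0.56 (edgeR adjusted p = 0.0013). Tle4 lay at 1.04 to 1.61 TPM in rBMSCs and 1.69 to 2.16 TPM in rEEOs (log2 fold change 0.71 ± 0.26, edgeR adjusted p = 0.0516), and it passed without rEEOs replicate 1 (edgeR adjusted p = 0.0196). The 5 Tle genes summed to 42.5 ± 2.08 TPM in rBMSCs and 62.6 ± 9.83 TPM in rEEOs, and Tle3 went from 72.3% to 74.4% of that sum to 23.4% to 49.1%.

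Of the 7 planar polarity genes 4 were higher in rEEOs, Prickle1 and Vangl1 were lower and Prickle3 did not pass. Over all genes tested, 33.3% were higher and 30.2% lower, and these 7 genes were not tested against those shares. Celsr2, an atypical cadherin that links polarized neighbours, had 0, 1 and 1 counts in rBMSCs and was at 17.9, 6.00 and 5.86 TPM in rEEOs. Its ratio of pooled counts was 1909-fold higher in rEEOs (95% exact interval 528 to 15766, edgeR adjusted p = 3.92e-05). Celsr3, of the same family, had 0, 2 and 1 counts in rBMSCs and 28, 18 and 54 counts in rEEOs. It reached at most 0.37 TPM in any library and was 33-fold higher (95% exact interval 11 to 164, edgeR adjusted p = 0.00241). Vangl2, a membrane protein of the polarity core, had 0, 0 and 1 counts in rBMSCs and was at 3.12, 1.17 and 1.17 TPM in rEEOs. Vangl2 was 365-fold higher (95% exact interval 65 to 14462, edgeR adjusted p = 0.000199). Its relative Vangl1 was at 30.2, 26.6 and 30.4 TPM in rBMSCs and at 21.98, 19.7 and 13.5 TPM in rEEOs. Vangl1 was 1.43-fold lower (log2 fold change -0.52 ± 0.15, edgeR adjusted p = 0.0197), and scaled by library size alone it did not pass (edgeR adjusted p = 0.4). Nor did it pass without any 1 of the rBMSCs libraries (edgeR adjusted p between 0.0529 and 0.0792).

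Prickle1, a cytoplasmic partner of Vangl, was at 23.5, 21.7 and 25.4 TPM in rBMSCs and at 1.56, 0.58 and 1.22 TPM in rEEOs. The groups were far apart, and Prickle1 was 18.1-fold lower (log2 fold change -4.17 ± 0.28, edgeR adjusted p = 4.72e-05). Prickle3 lay at 13.4 to 14.5 TPM in rBMSCs and 12.1 to 13.2 TPM in rEEOs (log2 fold change 0.13 ± 0.20, edgeR adjusted p = 0.6). Without rEEOs replicate 1 its log2 fold change of 0.32 passed (edgeR adjusted p = 0.028). In TPM, however, each rEEOs library was below each rBMSCs library, so the direction of Prickle3 depends on the scaling. Prickle4 was at 1.44, 0.99 and 1.16 TPM in rBMSCs and at 1.35, 9.85 and 4.35 TPM in rEEOs, so replicate 1 of rEEOs lay within the rBMSCs. Its log2 fold change was 2.50 ± 0.81 (edgeR adjusted p = 0.0327). The call was lost when any 1 library other than rEEOs replicate 1 was left out, with edgeR adjusted p between 0.0673 and 0.101, and under the replicate block (0.0768). The 3 Prickle genes summed to 38.8 ± 2.40 TPM in rBMSCs and 19.0 ± 4.35 TPM in rEEOs, and Vangl1 and Vangl2 to 29.1 ± 2.17 and 20.2 ± 5.24 TPM (n = 3 each). Celsr2 and Celsr3 summed to 0.0167 ± 0.0153 TPM in rBMSCs and 10.1 ± 6.86 TPM in rEEOs. These sums were not tested.

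Within rEEOs, replicate 1 held the highest TPM of 34 of the 54 tested genes, or 63.0%, and the lowest of 8, or 14.8%. Over all genes tested these shares were 64.2% and 19.0%, so the Wnt pathway genes were near the background. On the CPM scale, which is not corrected for length, the median log2 ratio over 48 genes for replicate 1 over the mean of replicates 2 and 3 was 0.31, compared to -0.01 over all genes tested. Lrp6, Dact2, Fzd3 and Znrf3 were high in replicate 1, and Prickle4, Tle2, Wnt7a, Tle6 and Wnt4 were low there. These 9 genes were chosen after their values were seen. Transcript length moved with this library, as given for all genes, and its part in these ratios was not tested.

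**Figure D5:**
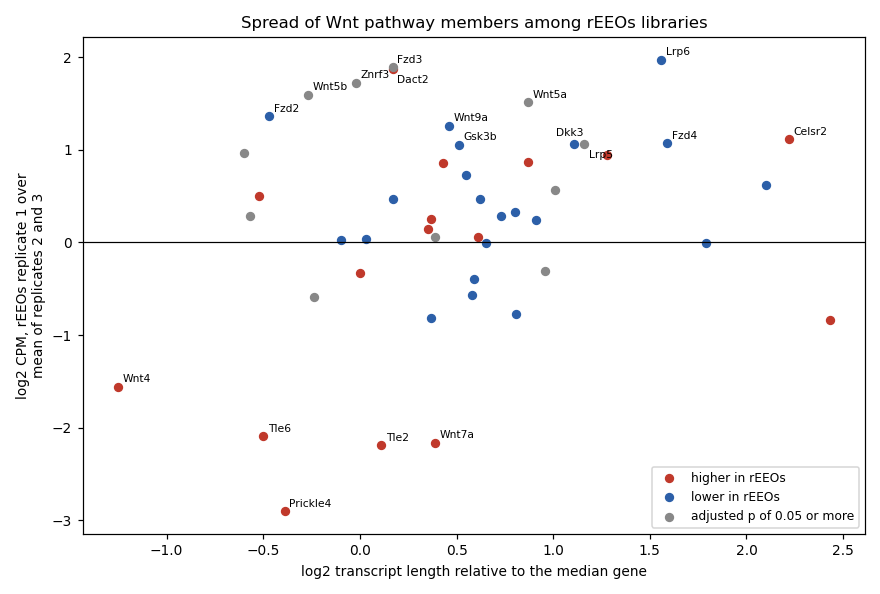
Log2 ratio of CPM in rEEOs replicate 1 to the mean of replicates 2 and 3 (vertical axis) against log2 transcript length relative to the median gene (horizontal axis), for 48 tested Wnt pathway genes coloured by their test result. The median gene lies at 0.31, and genes whose ratio is beyond 1 in either direction are named, Lrp6 near the top and Prickle4 at the bottom.

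Other genes of the pathway also went both ways. Of a list of 60 further components, 45 were held in the table and 42 tested. Higher in rEEOs were 7, or 16.7% compared to 33.3% of all genes tested, lower were 19, or 45.2% compared to 30.2%, and 16 did not pass. The counts were 10 and 16 with library size alone and 10 and 27 without rEEOs replicate 1. Shares of all genes were not computed for these refits. The median log2 fold change was -0.51, compared to 0.08 over all genes. Sostdc1, a secreted antagonist of BMP and Wnt signalling, was at 61.7, 122 and 63.7 TPM in rEEOs with 0 counts in rBMSCs. It was at least 486.5-fold higher in rEEOs (edgeR adjusted p = 0.000518). Tspan12, a partner of Fzd4 in Norrin signalling, had 470, 267 and 162 counts in rEEOs and 0 in rBMSCs and was at least 96.4-fold higher (edgeR adjusted p = 0.000375). Ankrd6, a Dishevelled-binding ankyrin protein, was at 20.9, 30.1 and 26.3 TPM in rEEOs with a total of 1 count in rBMSCs. The glypican Gpc3 was at 1.28, 11.95 and 11.3 TPM in rEEOs, lowest in replicate 1, with a total of 1 count in rBMSCs. Their ratios of pooled counts were 3946 for Ankrd6 (95% exact interval 708 to 155894) and 570 for Gpc3 (102 to 22540). Apcdd1, a membrane inhibitor that beta-catenin induces, was at 2.65, 2.74 and 4.38 TPM in rEEOs and at most 0.10 TPM in rBMSCs (log2 fold change 6.09 ± 0.57, edgeR adjusted p = 0.000188).

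On the rBMSCs side, Adgra2, a receptor that with Reck lets cells respond to Wnt7 ligands, was at 188, 173 and 194 TPM in rBMSCs with a total of 3 counts in rEEOs. The ratio was 10976-fold lower in rEEOs (95% exact interval 3755 to 53226). Igfbp4, an IGF-binding protein that also binds Lrp6, was at 338 ± 22.1 TPM in rBMSCs and 0.07 ± 0.052 TPM in rEEOs (n = 3 each, log2 fold change -11.88 ± 0.36, edgeR adjusted p = 4.73e-06). The formin Daam2, which binds Dishevelled, was at 33.9 ± 1.74 TPM in rBMSCs and at 0 counts in rEEOs, at least 708.6-fold lower. Pygo1, a co-activator of beta-catenin, was at 9.93, 8.08 and 9.80 TPM in rBMSCs, and Cthrc1, a secreted cofactor of the polarity branch, was at 2.90, 2.52 and 2.69 TPM there. Each had a total of 1 count in rEEOs, for ratios of 283 (95% exact interval 50 to 11203) and 79 (14 to 3167) in favour of rBMSCs.

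A list of 39 textbook targets of beta-catenin and TCF/LEF, 32 of them held and 24 tested, held 8 genes higher in rEEOs, 9 lower and 7 that did not pass. These are 33.3% and 37.5% of the 24, near the 33.3% and 30.2% of all genes tested. The counts depended on the fit, with 9 higher and 7 lower with library size alone. Without rEEOs replicate 1 they were 9 and 13. Shares of all genes were not computed for these refits. Of the 39, 6 are also among the genes described above by role, and the median log2 fold change of the 24 was -0.39. Beside Axin2, Rnf43 and Apcdd1, the widest differences upward were in transcription factors. Cdx2, known for intestinal identity, had 74, 33 and 26 counts in rEEOs and 0 in rBMSCs, at least 14.1-fold higher (edgeR adjusted p = 0.00122). Ascl2, known in intestinal stem cells, had 42, 31 and 53 counts against a total of 1, a ratio of 126 (95% exact interval 22 to 5004). Jun, part of AP-1, was at 68.2, 347 and 377 TPM in rEEOs and 22.4 ± 1.03 TPM in rBMSCs (n = 3, log2 fold change 3.94 ± 0.75, edgeR adjusted p = 0.00415). Jun was lowest in replicate 1 of rEEOs.

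Among the targets that were lower, Smoc2, a matricellular protein and intestinal stem cell marker, was at 76.1, 78.2 and 75.1 TPM in rBMSCs and at 0.25, 0 and 0 TPM in rEEOs (log2 fold change -9.56 ± 0.71, edgeR adjusted p = 7.21e-05). Sp8, a zinc-finger factor of limb outgrowth, had 94, 91 and 80 counts in rBMSCs and 0 in rEEOs, at least 28.7-fold lower (edgeR adjusted p = 0.000214). Tbx3, a T-box factor, was at 4.81 ± 0.28 TPM in rBMSCs and 0.0667 ± 0.0611 TPM in rEEOs (n = 3 each, log2 fold change -6.54 ± 0.56, edgeR adjusted p = 0.000134). Jag1, a Notch ligand, was at 105 ± 9.21 TPM in rBMSCs and 17.8 ± 3.25 TPM in rEEOs (n = 3 each), 4.85-fold lower (edgeR adjusted p = 0.000328). Lef1 and Nkd1 were the other 2 of these targets described by role that were lower. Znrf3, Ephb2, Ccnd1, Birc5, Fosl1, Plaur and Met did not pass.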

How the data were processed

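RNA-seq of 3 rEEOs and 3 rBMSCs samples was used as deposited. Per the labels and the study's methods, the authors trimmed reads with Trim Galore, aligned them with Bowtie2 2.2.5 (build Rnor_6.0 in the submitters' processing notes) and quantified genes with RSEM. The deposited table holds, per library, the authors' expected counts, which are not normalized and need not be whole, and their TPM and FPKM; columns of the authors' means were not used. FPKM served only to derive relative transcript lengths. The table analysed here holds 13728 genes, whose TPM sum to 81.3% to 82.7% of the full TPM total, and genes outside it were not analysed here.

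After rounding, 10607 genes reaching 10 counts in 3 or more libraries entered edgeR 4.0.16 (TMM, estimateDisp, glmQLFit, glmQLFTest; R 4.3.3) with a term for cell type and no other, and p-values were adjusted by Benjamini and Hochberg's method. TMM factors were 0.866 to 0.885 in rBMSCs and 1.097 to 1.195 in rEEOs. The code was tested on simulated data. For a gene at 0 counts throughout a cell type, a fold is a lower limit. It sets the mean CPM of the other cell type against 3 counts per library. With 1 to 3 counts in all, the ratio of pooled counts per effective library size is given with its exact 95% interval. The total counts of 10457958 to 15421501 make 3 counts equal to 0.181 to 0.262 CPM.

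The members and lists were chosen with earlier results of these data known. Genes are named with a value in every library if past an adjusted p of 0.05 and an absolute log2 fold change of 2, if at a mean of 20 TPM or more in either cell type, if at 3 counts or fewer in 1 cell type and 10 or more in each library of the other, or if of set interest (Axin2, Ctnnb1, Lgr4, Wnt4, Wnt5a, Wnt7a, Tcf7l2, Lef1); of the lists, the 5 most raised and 5 most lowered are named. Alternatives were DESeq2 1.42.0 (Wald test, or its size factors in edgeR), library size alone, other count filters, limma 3.58.1 on log2(TPM + 1) or log2(TPM + 0.1), a replicate block, a fold threshold of 1 on the log2 scale, each library left out and, added after seeing the data, removal of a transcript length trend (lowess, span 0.3). By gene ID, 60 of the 61 genes matched RefSeq, from which promoters were taken. Tables were made with pandas 2.3.3 and scipy 1.17.1 under Python 3.11.15 and figures with matplotlib 3.10.9.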

Additional observations from a re-analysis of the deposited data

How the results depend on the processing

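Over the 54 tested Wnt pathway genes, DESeq2 size factors left all 4 counts as they were, and the DESeq2 Wald test gave 18 higher and 27 lower. Leaving out each library in turn gave 14 to 18 higher, 24 to 31 lower, and past both thresholds 13 to 16 higher and 19 to 20 lower. The count of genes higher fell from 16 to 10, and past both thresholds from 15 to 8, with a filter of 50 counts in 3 libraries, under which only 40 genes were tested and which drops Wnt4, Wnt7a, Wnt11, Dact2, Tle6, Celsr3 and Prickle4. On log2(TPM + 1) with limma, 7 were higher and 13 lower past both thresholds, and on log2(TPM + 0.1) 11 and 20; Celsr3, Prickle4, Tle1 and Tle2 were lost under both. Without a filter on low counts Dkk1 joined the higher genes and Rspo2 the lower. The replicate numbers marked no shared source, and the deviations of same-numbered libraries correlated at 0.142, 0.159 and -0.126. With the replicate block 15 genes were higher and 26 lower, and 14 and 20 past both thresholds; Prickle4 and Vangl1 were the calls lost.

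Signs that reversed belonged to genes that had not passed. With library size alone Znrf3 was at 0.02, Gsk3a at 0.13 and Tle3 at 0.03. With limma Ctnnb1 was at -0.27 for both pseudocounts, Wnt5a at -0.13 and -0.16, and Prickle3 at -0.13 and -0.14. Over the fits missing 1 library Ctnnb1 lay between -0.01 (without rEEOs replicate 2) and 0.19, and Wnt5a between -0.30 (without rEEOs replicate 1) and 0.74. With the length trend removed Tle3 was at 0.05 and Prickle3 at -0.02. The cause was not tested. Of 796 refits of the genes' fold changes, 742 kept direction and side of the threshold, 26 lost the call, 15 gained it and 13 changed sign; 39 genes kept both in every refit. Depth limits the genes near 3 counts (0.181 to 0.262 CPM), where a count of 0 does not show absence.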
